A study of Mus musculus with 24 samples.

Results

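The livers of 12 wild-type mice, 6 given fumonisin B1 (FB1) and 6 given water, make up 12 of the 24 arrays of a study of FB1 in wild-type mice and mice without the liver X receptors. The members were chosen by genotype and treatment in the sample titles. Wild-type (WT) and knockout (KO) animals were females of sv129/C57 background, 8 weeks old, and FB1 was given at 10 mg/kg body weight per day for 1 month. The KO animals lack LXRα (Nr1h3) and LXRβ (Nr1h2) and enter below only where the WT response is set beside theirs, which has 6 FB1 and 6 control arrays of its own. The design text gives 6 mice per group, so the 6 arrays of a group were taken as separate animals.

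FB1 is a mycotoxin of Fusarium moulds that contaminates maize. It resembles a sphingoid base and inhibits ceramide synthases, which join a fatty acid to sphinganine or sphingosine, so that free sphingoid bases build up and ceramide formation falls. In rodents the liver and kidney are its main targets, where exposure is known to cause cell death followed by regenerative cell division. LXRs are oxysterol receptors that induce genes of cholesterol export and fatty acid synthesis.

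On the 12 WT arrays 58.7% to 64.5% of spots were well above background, and correlations between arrays within a group were 0.984 to 0.994. The arrays lay on 3 slides of 8, and each slide held 2 arrays of every group. A level is the log2 processed signal of a probe minus the 75th percentile of its array, so that 0 marks that percentile, and levels of different probes are not comparable. A change is the FB1 mean minus the control mean on this log2 scale, with the standard error (SE) of limma's fit, and a gene was called at a Benjamini-Hochberg adjusted p under 0.05. Nr1h3 lay between 4.76 and 5.06 in the WT controls and between -5.13 and -3.98 in the KO controls, as the genotype labels say. All 20 tested hepatocyte markers were well above background on all 12 WT arrays. In whole liver, fewer cells of a type and less RNA per cell cannot be told apart.

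FB1 changed 638 of 22088 tested genes in WT liver (2.89%), of which 456 were higher (2.06% of tested genes) and 182 lower (0.824%). The rises were the larger changes. Their median was 1.04 on the log2 scale, against -0.381 for the falls and -0.0299 for all tested genes. At least a 2-fold change was reached by 241 of the rises and 14 of the falls, and at least 4-fold by 72 and 6. Division genes took the top of the list, and 369 of the 456 rises lay outside the lists of cell cycle, DNA replication and matrix genes. Those lists do not hold every division gene, so the 369 can include others.

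The 6 FB1 livers moved together for most of these genes. In 622 of the 638 called genes all 6 FB1 arrays lay beyond the control mean, in the direction of the change. In 306 called genes (215 higher, 91 lower) the FB1 and control ranges did not overlap at all, which was the case in 513 of 22064 genes with all values (2.33%). In another 213 called genes 5 of 6 FB1 arrays lay beyond the control range, and in 119 it was 4 or fewer. Because these calls rest on the same arrays, their agreement is a description and not a separate test.

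The size of the response differed more than its direction. Over the 456 rises, the median deviation from the control mean was 1.39 on FB1 array 1 and 0.631 on FB1 array 4, with 0.96 to 1.1 on the other 4. Over the 182 falls it ran from -0.422 on FB1 array 1 to -0.295 on FB1 array 4. The controls ranged from -0.248 on array 4 to 0.4 on array 6 for the rises, each against the mean of the other 5. No FB1 liver fell inside the control range on either score, and FB1 array 4 came nearest. The genes were called on these same arrays, so this separation is a description and not a test.

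**Figure D1:**
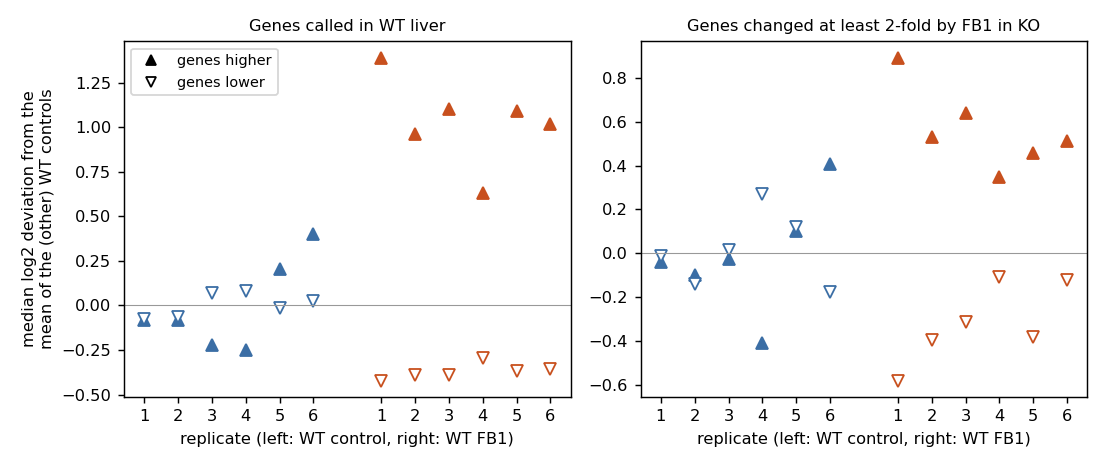
Median log2 deviation of gene sets on each wild-type array from the mean of the WT controls (for a control array, of the other 5 controls). Filled triangles are genes called higher and open triangles genes called lower, on the left called in WT (456 and 182) and on the right at least 2-fold changed in KO (1019 and 446). FB1 array 1 lies farthest from the controls and FB1 array 4 nearest on the left.

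FB1 arrays 1 and 4 were again the highest and the lowest over genes that the WT arrays did not choose. Over 1019 genes that FB1 raised at least 2-fold in KO liver, FB1 array 1 deviated by a median of 0.893 and FB1 array 4 by 0.349, while the controls lay between -0.412 (array 4) and 0.407 (array 6). Control array 6 was thus above FB1 array 4 on this score. Over the 446 genes lowered at least 2-fold in KO, the FB1 arrays ran from -0.582 to -0.108 and the controls from -0.179 to 0.271, so that 2 FB1 arrays, 4 and 6, lay within the control range.

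Leaving out single arrays moved the count of calls. Without FB1 array 1 there were 386 calls and without FB1 array 4 there were 839, and 341 genes (290 higher, 51 lower) were called in all 12 fits that each left out 1 array. The falls were the less stable side: 77 were called without FB1 array 1, 93 without FB1 array 3, 115 without FB1 array 2, 87 without control array 4 and 283 without FB1 array 4. Within slides, 637 of 638 called genes kept their direction on all 3 slides, where 38.7% of all tested genes had 1 direction on all 3. The called genes were chosen on the same arrays, so this too is a description. The median rise was 1.06, 1.4 and 0.687 on the slides. Slide 3 holds FB1 array 4 and control array 6. With slide as a block the fit called 645 genes.

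Spread within groups was no wider under FB1. The median within-group SD over genes was 0.188 in the FB1 livers and 0.212 in the controls, and 39.6% of genes had the larger SD under FB1.

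Cell division genes rose in nearly all members of their list. Of 65 tested genes of the cell cycle and mitosis list, 58 were called higher, against 2.06% of all tested genes, and 0 lower. The list median was 1.99, against -0.0299 over all genes. Cdk1, the kinase that drives entry into mitosis, lay between -5.02 and -2.54 (median -4.17) in the controls and between -2.28 and -0.95 (median -1.51) after FB1. The ranges did not overlap, and limma gave a change of 2.37 ± 0.337 (SE, n = 6 per group, adjusted p = 0.000492). Cdkn3, a phosphatase that acts on Cdk1 and Cdk2, ran from -6.04 to -3.05 in the controls and from -2.28 to -0.75 after FB1, again without overlap (3.11 ± 0.437, adjusted p = 0.000457).

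The controls were not alike in division genes. The list median per array was -0.927 on control array 4 but 0.951 and 1.16 on control arrays 5 and 6, and it ran from 1.22 (array 4) to 2.68 (array 5) under FB1. Within slides the list median was 2.28, 2.55 and 1.28. Of 38 tested DNA replication genes, 15 were called higher, against 2.06% of all tested genes, and 0 lower (median 0.536). These included E2f1, a transcription factor of the G1 to S transition (0.98 ± 0.15, adjusted p = 0.000682, limma).

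Many genes of this kind carry, near their start, the letters of the cell cycle genes homology region (CHR), through which the DREAM and MuvB complexes act. The windows below show it for 4 called division genes in RefSeq promoters of build GRCm38.p6, each 30 bases, written 5′ to 3′ on the gene's strand, with the CHR letters (TTTGAA or TTTAAA on either strand) in capitals. They are shown because these letters were more frequent in promoters of called division genes than in the other sets described next. Cdkn3 lies at chr14:46760418-46760447, Cdk1 at chr10:69352966-69352995, Ccnb2 at chr9:70421704-70421733 and Aspm at chr1:139454523-139454552.
Cdkn3: ttccgcgcgtctTTCAAAgacttcctctga
Cdk1: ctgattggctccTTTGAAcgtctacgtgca
Ccnb2: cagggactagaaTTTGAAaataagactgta
Aspm: agtgTTTAAAacaccaaggctaatttccgt

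Of the 48 called division genes with a promoter in the table (58 called), 79.2% held TTTGAA or TTTAAA and 75% the CCAAT box, and 66.7% held both. Among the promoters of all 12829 tested genes with one, the shares were 20.9%, 38.5% and 8.44%. Called rises outside the division, replication and matrix lists stood at 34.7%, 47.1% and 19% (242 promoters), and called falls at 21.8%, 37.8% and 8.4% (119 promoters). The E-box CACGTG was in 16.0% of the promoters of called falls and in 9.48% of those of tested genes. All motifs were sought on both strands of each promoter, and a match is a description of letters, not of binding. Ccnb2 and Aspm were chosen here after their values were seen.

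Of the regulators of the G1 phase, 2 CDK inhibitors and 1 cyclin rose. Cdkn2c, an inhibitor of CDK4 and CDK6, lay between -0.34 and 0.21 in the controls and between 0.59 and 1.14 after FB1. Its ranges were apart by 0.386, and the change was 0.93 ± 0.126 (adjusted p = 0.000381, limma). Ccnd1, the cyclin partner of CDK4 and CDK6, had a median of 2.07 in the controls (1.25 to 2.64) and 3.07 after FB1 (2.63 to 3.86). The lowest FB1 array was just under the highest control (1.20 ± 0.246, adjusted p = 0.00632). Cdkn2d, another inhibitor of this family, rose by 0.65 ± 0.167 (adjusted p = 0.0341), and was called in 5 of 12 fits that left out 1 array. These 3 were the called members among 17 tested G1 cyclins and CDK inhibitors (0 lower, median 0.0364), against 2.06% of all tested genes called higher.

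Targets of p53 did not move as a group. Of 37 tested p53 and apoptosis genes, 4 were called higher and 1 lower, against 2.06% and 0.824% of all tested genes. The list median was -0.00541. Phlda3, a p53-induced repressor of AKT, lay between -1.71 and -0.94 in the controls and between -0.71 and 0.49 after FB1, without overlap (0.94 ± 0.178, adjusted p = 0.00313). Ckap2 and Psrc1, called with changes of 3.55 ± 0.537 and 2.18 ± 0.342, encode proteins of the mitotic spindle. Tnfrsf10b, a death receptor, rose by 0.92 ± 0.22 (adjusted p = 0.0208), was called in 9 of 12 fits that left out 1 array, and was named after its values were seen.

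Of 19 tested DNA damage and repair genes, 8 were called higher, against 2.06% of all tested genes, and 0 lower (median 0.42). They included Polq, the polymerase of microhomology-mediated end joining, at 1.86 ± 0.351, and Neil3, a DNA glycosylase, at 1.75 ± 0.361 (adjusted p = 0.00309 and 0.00651, limma). Polq was well above background on 1 of 6 control arrays, and with the dim arrays raised to the floor its change was 1.09. The FB1 and control ranges of both overlapped.

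The melatonin receptor gene Mtnr1a was among the largest rises outside these lists. Its levels ran from -6.35 to -4.54 (median -5.74) in the controls and from -4.05 to -2.49 (median -3.04) after FB1. The ranges were 0.493 apart, and the change was 2.45 ± 0.301 (5.47-fold, adjusted p = 0.000381, limma). Its probe (chr8:46173783-46173842, build mm9) was well above background on 3 control arrays, and with the dim arrays raised to the floor the change was 2.23. The other 2 tested probes of Mtnr1a rose by 1.22 and 1.57.

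Several other genes with low levels in control liver rose without overlap. Gldn, which encodes gliomedin of the nodes of Ranvier, was not well above background on any control array and was on 5 of 6 FB1 arrays. It was at least 1.92-fold higher (adjusted p = 0.00341, limma), though not called with normexp background correction or in the authors' values. Detected throughout no WT group, Gldn was tested only because a KO group was. Camk1g, a calcium-dependent kinase, went from a median of -5.40 (-5.83 to -5.21) to -4.27 (-4.76 to -4.03), a change of 1.11 ± 0.185. Capn6, a calpain without protease activity, went from -4.11 (-4.70 to -3.75) to -3.16 (-3.34 to -2.48), a change of 1.1 ± 0.218.

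Neurl1b, an E3 ligase of the Notch pathway, rose from a median of -2.05 to 0.61 (2.18 ± 0.34, 4.53-fold, adjusted p = 0.000742). Its highest control, -0.69, was array 6, and its lowest FB1 value, -0.54, was array 4. Apol11b, of the apolipoprotein L family, rose from -5.27 (-6.12 to -3.43) to -3.04 (-3.87 to -2.32), with control array 6 inside the FB1 range (2.04 ± 0.422, adjusted p = 0.00684). Both were named after their values were seen. Lockd, a non-coding RNA gene next to Cdkn1b, and Mxd3, a MAX partner of dividing cells, rose by 2.92 ± 0.391 and 2.38 ± 0.497. Mxd3 was well above background on 1 control array, and with dim arrays at the floor its change was 1.51.

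**Figure D2:**
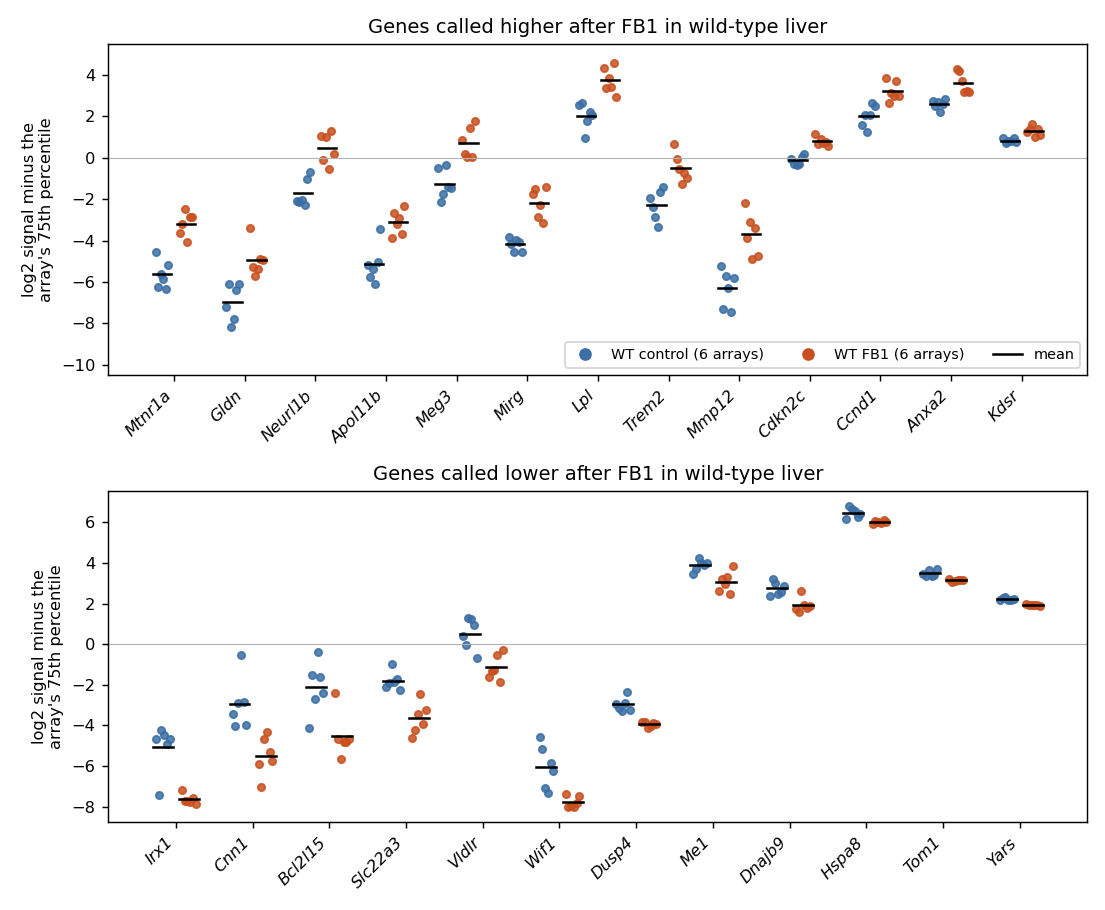
Level of 25 genes on each of the 12 wild-type arrays (log2 signal minus the 75th percentile of the array), with 6 control points in blue, 6 FB1 points in orange and the group mean as a bar. Cdkn2c, Mirg and Dusp4 show no overlap between groups, while 1 control array of Irx1 lies among the FB1 arrays.

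The imprinted Dlk1 to Dio3os locus on chromosome 12 stood out among rises outside any division list. Here the maternal chromosome expresses long non-coding RNAs, microRNAs and small nucleolar RNAs from Meg3 to Mirg, and the paternal one expresses Dlk1 and Dio3. Of 19 tested genes between 110698721 and 111513606 (mm9), 7 were called higher (background 2.06%) and 0 lower, 16 changed upward, and the median change was 1.1. The locus was picked after its values were seen, so these counts are a description. Some of the 19 were detected throughout no WT group and were tested only because a KO group was. Among the 7 called these included 1110006E14Rik, detected on 0 control and 5 FB1 arrays in WT.

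Meg3 (probe chr12:110809678-110809737) lay between -2.15 and -0.36 (median -1.44) in the controls and between 0.02 and 1.79 (median 0.53) after FB1. No FB1 array reached down to the controls, and the change was 2.0 ± 0.365 (adjusted p = 0.00244, limma). Of its other 4 tested probes, 3 rose by 1.94 to 2.36 and the fourth changed by 0.80 ± 0.495. Mirg (chr12:110987569-110987628) had control values of -4.53 to -3.81 and FB1 values of -3.17 to -1.39, a gap of 0.642 (2.02 ± 0.297, adjusted p = 0.000613).

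A non-coding transcript between Meg3 and Mirg (probe chr12:110897958-110898017) was not well above background on any control array and was on all 6 FB1 arrays. It was at least 3.28-fold higher (adjusted p = 0.000381). 1110006E14Rik was likewise dim in all controls and at least 2.08-fold higher (adjusted p = 0.00238). Neither was called with normexp background correction or in the authors' values. Rian, from the same stretch, changed by 1.35 ± 0.429 without passing the test (adjusted p = 0.0911). Dlk1, from the paternal chromosome, changed by 1.1 ± 0.428 (adjusted p = 0.175), and its other tested probe by -0.157 ± 0.436.

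The KO livers stood higher here without FB1 as well. Over the 19 genes, the median deviation from the WT control mean was 0.568 to 1.562 on the WT FB1 arrays and 1.342 to 2.642 on the KO control arrays. The members that were tested only through a KO group tilt this median toward KO, so it is a description. Meg3 lay between 3.46 and 4.14 in the KO controls and between 2.56 and 4.40 in KO with FB1. Its FB1 effect in KO was -0.51 ± 0.365, and the difference of the 2 effects had an adjusted p of 0.00456 (limma). For Dlk1 the larger effect was in KO: FB1 raised it by 4.80 ± 0.428 in KO (adjusted p of the difference 0.000958). Of the 7 genes called in WT, 2 were also called higher in KO.

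**Figure D3:**
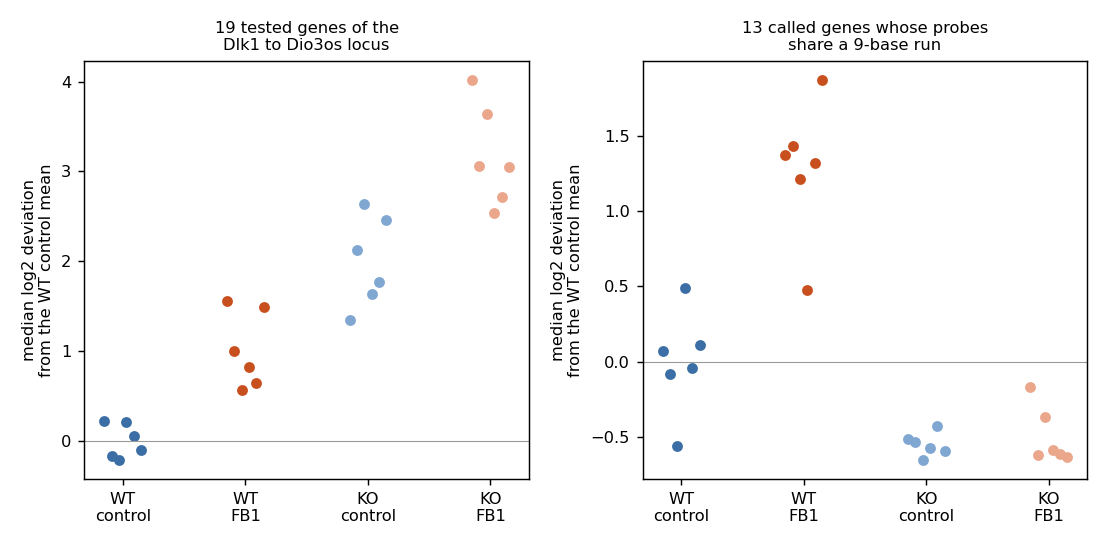
Median log2 deviation from the WT control mean on each of the 24 arrays, by group, of 19 tested genes between Dlk1 and Dio3os (left) and of 13 called genes whose probes share a run of 9 bases (right). On the left the KO controls lie at 1.342 to 2.642, above the WT controls, and on the right all KO arrays lie below 0 while 5 of 6 WT FB1 arrays lie above 1.2.

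Ceramide synthase genes, whose products FB1 inhibits, gave no call. Cers2, which makes very long chain ceramides and is the main hepatic form, lay between 3.71 and 4.24 (array 4) in the controls and between 3.66 and 3.91 after FB1 (-0.10 ± 0.0992, adjusted p = 0.607). Cers4 changed by -0.09 ± 0.105, Cers5 by 0.02 ± 0.0914 and Cers6 by -0.18 ± 0.102, and none passed the test (adjusted p = 0.684, 0.941 and 0.346, limma). In all 4 the FB1 and control ranges overlapped. Of 14 tested genes of de novo ceramide synthesis, 7.14% had an unadjusted p under 0.05 (limma), against 18.1% of all genes. At the adjusted threshold 1 was called higher, against 2.06% of all tested genes, and 0 lower (median -0.0638).

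That gene was Kdsr, the reductase that makes sphinganine. Its controls lay between 0.70 and 0.94 and its FB1 arrays between 1.0 and 1.63, without overlap. The change was 0.46 ± 0.0971 (1.38-fold, adjusted p = 0.00751), and 0.699, 0.495 and 0.196 within the slides. Its second tested probe changed by 0.09 ± 0.224, and with the mean of both probes Kdsr was not called. The subunits of serine palmitoyltransferase, the first enzyme of the pathway, changed by -0.02 (Sptlc1), -0.08 (Sptlc2) and -0.15 (Sptlc3), with overlapping ranges and SEs of 0.0783 to 0.118. Degs1, which turns dihydroceramide into ceramide, changed by 0.02 ± 0.0737.

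Genes that handle sphingoid base phosphates gave 1 call, a fall, in 22 tested genes, against 0.824% of all tested genes called lower. At an unadjusted p under 0.05 (limma), 5 of the 22 passed (22.7%), 3 higher and 2 lower. Plpp1, a lipid phosphate phosphatase, fell by 0.62 (SE 0.164, adjusted p = 0.0369), from 2.20 to 2.63 in the controls to 1.32 to 2.40 after FB1, with overlap. It was called in 5 of 12 fits that left out 1 array, with the highest adjusted p, 0.098, without FB1 array 1. Sphk1, one of the kinases that phosphorylate sphingosine, had a control median of -1.96 and an FB1 median of -1.55 (0.59 ± 0.189, adjusted p = 0.0969). Sphk2 changed by 0.01 ± 0.0889 and Sgpl1, the lyase that ends the pathway, by -0.15 ± 0.109. Among 20 tested genes of complex sphingolipid synthesis and breakdown, 0 were called in limma's fit and 1 had an unadjusted p under 0.05 (median 0.0694), against 18.1% of all tested genes.

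LXR target genes were called once in each direction among 21 tested (median -0.115), against 2.06% higher and 0.824% lower of all tested genes. The receptor genes Nr1h3 and Nr1h2 changed by -0.10 ± 0.291 and -0.07 ± 0.0751. Lpl, the lipase that releases fatty acids from lipoproteins, ran from 0.96 to 2.63 in the controls (median 2.14) and from 2.92 to 4.60 after FB1 (median 3.63). All FB1 arrays were above all controls, and the change was 1.72 ± 0.27 (3.30-fold, adjusted p = 0.000743). Of its other 5 tested probes, 4 rose by 1.75 to 2.44 and 1 changed by 0.07. In KO, Lpl rose by 3.62 ± 0.27, and the effects differed (adjusted p = 0.00391). Macrophages and adipocytes are also known to express Lpl.

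Pltp, the phospholipid transfer protein of plasma, was the call in the other direction at -0.60 ± 0.163 (adjusted p = 0.0461). Its highest control, 1.77, was array 6, and its ranges overlapped. It was called in 4 of 12 fits that left out 1 array, with the highest adjusted p, 0.108, without FB1 array 2. Vldlr, the very low density lipoprotein receptor, fell from a median of 0.67 (-0.68 to 1.27) to -1.30 (-1.84 to -0.28), a change of -1.66 ± 0.293 (adjusted p = 0.00181). Control array 6 lay below 2 FB1 arrays. Within slides the fall was -2.01, -2.73 and -0.256.

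Lipid synthesis genes gave few calls, but most changed downward. Of 32 tested fatty acid and triglyceride genes 3 changed upward, the median was -0.375, and 1 was called lower. This was Me1, the malic enzyme that supplies NADPH, which went from a median of 3.94 (3.46 to 4.23) to 3.09 (2.45 to 3.83), with FB1 array 6 inside the control range (-0.81 ± 0.164, adjusted p = 0.0054). Per array, the fatty acid list ran from -0.508 to -0.0863 under FB1 and from -0.317 to 0.274 in the controls, so that FB1 arrays 1, 4 and 6 lay within the control range. Of 28 tested cholesterol synthesis and uptake genes 3 changed upward, the median was -0.437, and 1 was called lower, against 0.824% of all tested genes. At an unadjusted p under 0.05 (limma), 14 fatty acid genes (13 of them lower) and 15 cholesterol genes (14 lower) passed. These were 43.8% and 53.6% of their tested members, against 18.1% of all genes. Per array, the cholesterol list ran from -0.681 to -0.0906 under FB1 and from -0.212 to 0.265 in the controls, so that FB1 array 1 lay within the control range.

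Monocyte-derived macrophage markers were mostly higher after FB1, with overlap between the groups. Of 23 tested, 7 were called higher, against 2.06% of all tested genes, and 0 lower, and 22 changed upward (median 0.456). Per array, the list ran from 0.276 to 0.824 under FB1 and from -0.723 to 0.63 in the controls. FB1 arrays 2, 4, 5 and 6 lay within the control range. The slide medians were 0.501, 0.948 and 0.126. Trem2, a receptor of lipid-associated macrophages, ran from -3.34 to -1.42 in the controls and from -1.28 to 0.65 after FB1, without overlap (1.77 ± 0.288, adjusted p = 0.00102). Mmp12, the macrophage elastase, rose from a median of -6.06 to -3.64 (2.60 ± 0.381, adjusted p = 0.000613). Only 1 control array passed the background test. With dim arrays at the detection floor the change was 1.96, and its other 2 tested probes changed by 0.901 and 0.735 without passing the test. Cx3cr1, the fractalkine receptor, changed by 1.30 ± 0.289 (adjusted p = 0.0121) with overlapping ranges.

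Gpnmb, a membrane glycoprotein found in foamy macrophages, was well above background on 0 control arrays and 1 FB1 array, and its highest level was -2.79 on FB1 array 1. The other 5 FB1 arrays lay between -6.97 and -5.55, so no fold is given for it, and it was not called with normexp correction or in the authors' values. Gpnmb was tested only because it was detected throughout a KO group. Cd63, a tetraspanin of late endosomes, rose by 0.54 ± 0.144 (adjusted p = 0.0423), but was called in 3 of 12 fits that left out 1 array (highest adjusted p 0.117, without FB1 array 1). The list's summed level spanned 7.0 to 8.63 in the controls and 7.70 to 8.04 under FB1. The marker list of resident Kupffer cells gave 0 calls in 19 with limma, and 1 unadjusted p under 0.05 (median 0.0486). Its array medians ran from -0.948 to 0.53 in the controls, with control array 4 the lowest there too.

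Neutrophil markers had higher means after FB1 but were scattered. All 17 tested changed upward and the median was 1.35, yet 1 was called, against 2.06% of all tested genes called higher. At an unadjusted p under 0.05 (limma), 11 of the 17 passed, all of them higher (64.7%, against 18.1% of all genes). Camp, a granule antimicrobial peptide, went from a median of -0.54 (-1.62 to 0.77) to 0.65 (0.04 to 2.41), with overlap (1.45 ± 0.386, adjusted p = 0.0407). The control arrays themselves spanned -1.91 (array 4) to 1.36 (array 6) on this list, and the FB1 arrays 0.226 to 1.58. Camp was called in 5 of 12 fits that left out 1 array, with the highest adjusted p, 0.108, without control array 4. The erythroid list, with 0 limma calls in 16 and 5 unadjusted p under 0.05 (3 higher and 2 lower, against 18.1% of all genes), ran from -0.967 to 0.834 over the controls. The part of blood cells in the neutrophil values was not tested.

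Matrix genes gave 14 rises among 56 tested, against 2.06% of all tested genes, and 0 falls (median 0.293). Col1a1, the main fibrillar collagen chain, went from -2.47 to -0.79 in the controls to -0.52 to 1.16 after FB1, without overlap (1.53 ± 0.318, adjusted p = 0.00698). Col6a3 and Lum, a collagen VI chain and the proteoglycan lumican, rose by 0.97 ± 0.182 and 0.81 ± 0.145, also without overlap. The other 2 tested probes of Col6a3 changed by -0.129 and 0.478, and the mean of its probes was not called. Stellate and fibroblast markers gave 2 rises in 23 (median 0.171), against 2.06% of all tested genes, and Col1a1 was 1 of the 2. The sinusoidal endothelium list gave 0 limma calls in 21 and 8 unadjusted p under 0.05 (1 higher and 7 lower, against 18.1% of all genes), with a median of -0.296 and slide medians of -0.44, -0.579 and 0.149.

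Anxa2, a membrane-binding annexin, lay between 2.20 and 2.84 in the controls and between 3.17 and 4.27 after FB1, with FB1 arrays 1 and 2 highest. The change was 1.02 ± 0.238 (adjusted p = 0.017, and 0.0558 without FB1 array 1), and it was not called in the authors' values. S100a4 and S100a6, calcium-binding proteins of motile cells, rose by 0.81 ± 0.212 and 0.62 ± 0.166 (adjusted p = 0.0371 and 0.0444), and were called in 4 and 3 of 12 fits that left out 1 array. Tubb6, a β-tubulin, rose by 1.42 ± 0.267. Osgin1, an oxidative stress response gene, was the 1 rise among 41 tested NRF2 and glutathione genes (1.23 ± 0.334, adjusted p = 0.0453). Me1, G6pdx and Cbr1, a carbonyl reductase, were the 3 falls of that list (median -0.0964). Over all tested genes 2.06% were called higher and 0.824% lower. Osgin1 was called in 4 of those 12 fits, with the highest adjusted p, 0.118, without FB1 array 1.

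Several of the largest falls were read by dim probes. Irx1, a homeobox factor, lay between -7.42 and -4.24 in the controls (median -4.67) and between -7.87 and -7.18 after FB1. Control array 2, at -7.42, stood alone among the FB1 values. Irx1 was well above background on 5 control arrays and on 0 FB1 arrays, was at least 1.54-fold lower, and had an adjusted p of 0.000457 (limma). It was tested only because it was detected throughout a KO group. Cnn1, smooth muscle calponin, went from a median of -3.18 (-4.00 to -0.51) to -5.55 (-7.04 to -4.31), without overlap (-2.55 ± 0.521, adjusted p = 0.00612). It was the 1 called member of 12 tested smooth muscle markers, whose median was -0.0492. Over all tested genes 0.824% were called lower.

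Bcl2l15, a pro-apoptotic BCL2 relative, went from a median of -2.0 to -4.75, but FB1 array 1 stood at -2.40 and control array 1 at -4.13 (-2.38 ± 0.476, adjusted p = 0.00511). Mpped2, a metallophosphoesterase, fell without overlap (-2.12 ± 0.321, adjusted p = 0.000682), and with dim arrays at the floor the change was -1.89. Adgrg2, Wif1 and Tnnt2 were not well above background on any FB1 array and on 3, 2 and 4 control arrays, with adjusted p of 0.00181, 0.00797 and 0.0188. No fold is given for these 3, which were detected throughout no WT group and were tested only because a KO group was. Tnnt2 is cardiac troponin T, and Wif1 encodes an inhibitor of Wnt ligands.

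Other falls were in a transporter and a phosphatase. Slc22a3, an organic cation transporter, ran from -2.28 to -1.0 in the controls and from -4.64 to -2.45 after FB1, without overlap (-1.85 ± 0.32, adjusted p = 0.00162). It was the 1 called gene of 31 tested hepatocyte transporters (median -0.0616), against 0.824% of all tested genes called lower. Dusp4, a MAP kinase phosphatase, lay between -3.29 and -2.36 in the controls and between -4.14 and -3.85 after FB1. The ranges were 0.557 apart (-0.98 ± 0.153, adjusted p = 0.000737). Slc13a4, a sulfate transporter, and Pcp4l1, a small protein of the PCP4 family, fell by 1.5 and 1.35 with overlapping ranges. Slc13a4 was well above background on 2 FB1 arrays, and with dim arrays at the floor its change was -0.967.

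A second kind of fall was small and tight. Tom1, an endosomal sorting adaptor, lay between 3.37 and 3.69 in the controls and between 3.08 and 3.22 after FB1 (-0.35 ± 0.0642, SD 0.0505 over the FB1 arrays, adjusted p = 0.00267). Yars, the tyrosyl-tRNA synthetase, went from 2.16 to 2.30 in the controls to 1.90 to 2.0 after FB1 (-0.29 ± 0.0539, adjusted p = 0.00299). The groups did not overlap for either gene. The other probes of Tom1 changed by -0.356 and 0.000422 and those of Yars by -0.222 and -0.165, and the mean of the Yars probes was not called. Pum3 (-0.41 ± 0.0817), Endog (-0.35 ± 0.0848) and Miga1 (-0.45 ± 0.109), a Pumilio-family RNA-binding protein and 2 mitochondrial proteins, fell without overlap too. Ttc1 (-0.21 ± 0.0557) overlapped by a hair and was called in 3 of 12 fits that left out 1 array.

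Other falls of this size, named after their values were seen, included Bysl (-0.47 ± 0.12), Bop1 (-0.29 ± 0.0722) and Wdr74 (-0.35 ± 0.0694), which act in ribosome assembly. Paics (-0.40 ± 0.098) and Gmps (-0.41 ± 0.0892), enzymes of purine synthesis, and Iars (-0.38 ± 0.0844), the isoleucyl-tRNA synthetase, fell as well. Bysl was called in 5, Bop1 in 7 and Paics in 8 of 12 fits that left out 1 array, and neither Bysl nor Bop1 was called in the authors' values or without the filter on dim probes. Hspa8, the constitutive HSP70, fell from 6.17 to 6.81 in the controls to 5.91 to 6.13 after FB1 (-0.44 ± 0.106, adjusted p = 0.0206, called in 8 of 12 fits that left out 1 array). Dnajb9, a chaperone partner of the ER, fell by 0.83 (SE 0.205, adjusted p = 0.0271). It was the 1 called gene among 26 tested ER chaperones and XBP1 targets, against 0.824% of all tested genes called lower. FB1 array 3, at 2.64, overlapped the controls of Dnajb9, which was called in 7 of those 12 fits.

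Hepatocyte function genes gave few or no calls, where 2.89% of all tested genes were called. In limma's fit, 0 of 44 tested genes of gluconeogenesis, the urea cycle and amino acid breakdown were called (median -0.223), 0 of 30 PPARα targets (median -0.176) and 0 of 20 hepatocyte markers (median 0.0525). At an unadjusted p under 0.05 these lists had 19 genes (16 of them lower), 2 and 3, or 43.2%, 6.67% and 15% of their tested members against 18.1% of all genes. Changes were upward in 4 of the 44, 1 of the 30 and 15 of the 20, against 9439 of all 22088 tested genes. In the first of these lists Gnmt, a glycine methyltransferase, came nearest (-0.42 ± 0.118, adjusted p = 0.0527). Cps1, the first enzyme of the urea cycle, changed by -0.39 ± 0.143 (adjusted p = 0.141). Of 47 tested cytochrome P450 genes and receptors, 1 was called higher and 1 lower (median -0.169), against 2.06% and 0.824% of all tested genes. At an unadjusted p under 0.05 (limma), 11 of the 47 passed (23.4%), 3 higher and 8 lower. The FB1 effect in KO was called lower in 38 of the 44 amino acid and gluconeogenesis genes and in 37 of the 47 P450 genes. Among all tested genes 24.6% were called lower in KO.

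Cyp2b10, a target of the receptor CAR, was the P450 called higher in WT (1.37 ± 0.346, adjusted p = 0.03, called in 4 of 12 fits that left out 1 array). Its controls ran from -3.18 to -0.41 and its FB1 arrays from -1.46 to 0.20, with wide overlap. In KO it fell (-1.13 ± 0.346), and the difference had an adjusted p of 0.00346. Its mean level without FB1 was 6.96 in the KO controls and -2.02 in the WT controls, so the 2 effects start from very different levels. Cyp2c39 fell by 0.67 (SE 0.183, adjusted p = 0.0481), and was called in 2 of those 12 fits. Across all 57 lists, 24 had no called member, 16 had called members only higher, 10 only lower and 7 both.

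**Figure D4:**
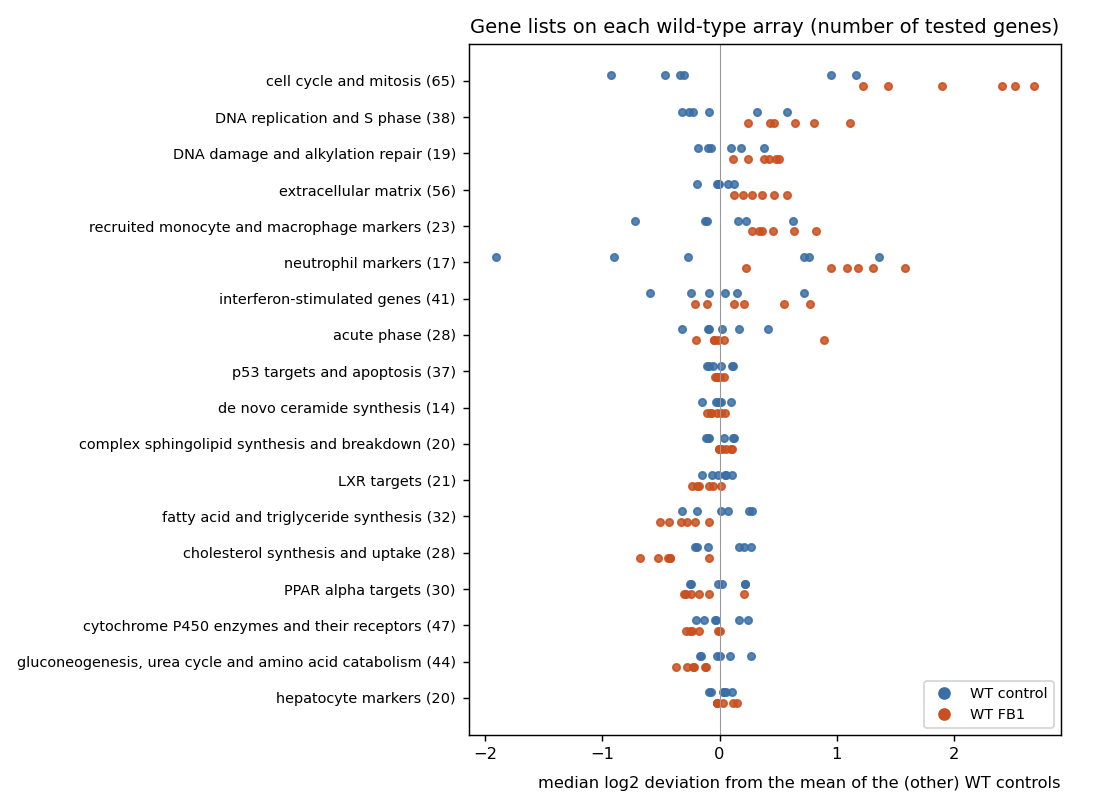
Median log2 deviation of 18 gene lists on each wild-type array from the mean of the WT controls (for a control array, of the other 5), with controls in blue, FB1 in orange and the number of tested genes in brackets. The cell cycle list lies at 1.22 to 2.68 on the FB1 arrays and at -0.927 to 1.16 on the controls, while the ceramide synthesis list lies between -0.153 and 0.0938 on all 12 arrays.

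Set beside the KO animals, which have controls of their own, most WT calls went the same way. Of the 456 genes raised in WT, 390 (85.5%) were also called higher in KO, where 16.5% of all tested genes were. Of the 182 lowered, 121 (66.5%) were called lower in KO, against 24.6% of all tested genes. The KO call went the other way in 2 of the rises and 3 of the falls. The difference between the effects passed limma's test in 111 of the 638 genes (17.4%, against 9.30% of all genes), and the KO change was the larger in 53 of the 84 rises and 11 of the 27 falls among them.

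Some rises were larger in KO. Spon2, a secreted matrix protein, rose by 1.21 ± 0.208 in WT and 2.95 ± 0.208 in KO. Ifi27l2b, an interferon-inducible gene, rose by 1.34 ± 0.257 and 3.82 ± 0.257, and Svep1, a large adhesion protein, by 0.63 ± 0.138 and 1.88 ± 0.138. The differences had adjusted p of 0.00128, 0.000438 and 0.000651. Pkp1, a desmosome protein that was dim in all WT controls, was at least 1.65-fold higher in WT (adjusted p = 0.0148), and its difference had an adjusted p of 0.000586.

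Others differed the opposite way. Apol11b changed by -0.10 ± 0.422 in KO (adjusted p of the difference 0.0265). C730014E05Rik rose from a median of -1.16 to -0.55 in WT, without overlap (0.68 ± 0.117, adjusted p = 0.00155), and fell by 0.47 in KO (adjusted p of the difference 0.000393). G6pdx, the first enzyme of the pentose phosphate pathway, fell by 0.53 in WT (SE 0.137) and rose by 0.43 in KO. Prmt7 and Tmem68 fell by 0.245 and 0.372 in WT and rose by 0.204 and 0.272 in KO. The WT calls of G6pdx, Prmt7 and Tmem68 held in 4, 2 and 4 of 12 fits that left out 1 array.

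**Figure D5:**
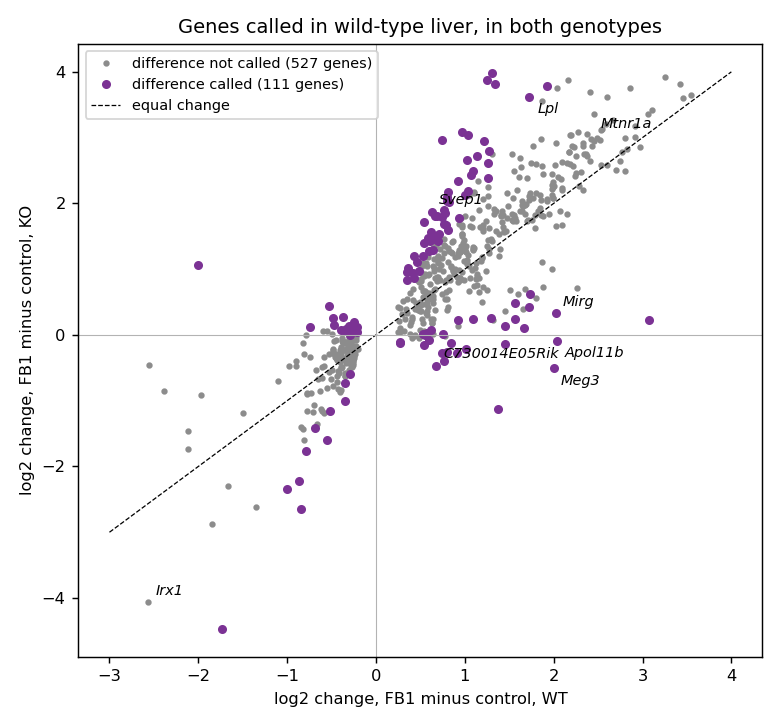
FB1 change in WT (x axis) and in KO (y axis), both log2, of the 638 genes called in WT liver, with the 111 whose difference between genotypes passed the test in purple and a dashed line at equal change. Lpl and Svep1 lie above the line, and Meg3, Mirg and Apol11b lie near 0 in KO.

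A group of 13 called rises shared a run of letters in their probes. Each probe of 60 bases held the run CTGTGCTGT, and the genes lie on 9 chromosomes. The probe windows of 4 of them are shown so that the shared letters can be seen, written as in the array design, with the run in capitals and up to 8 bases on either side. The positions are Lrrc9 at chr12:73578529-73578588, Dzip1 at chr14:119279991-119280050, Tpsb2 at chr17:25504819-25504878 and Lrrc71 at chr3:87542909-87542968 (mm9, whole probe).
Lrrc9: aagaaaagCTGTGCTGTcatgtttg
Dzip1: agtctgtCTGTGCTGTctgacagc
Tpsb2: gggCTGTGCTGTctttaact
Lrrc71: gtctcttgCTGTGCTGTtccttgaa

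Of 46 tested genes read by such a probe, 13 were called higher (28.3%, against 2.06% of all genes), 0 lower, and 36 changed upward. The difference between genotypes was called in 13 as well (28.3%, against 9.30%). Lrrc9, a leucine-rich repeat protein, lay between -4.46 and -3.14 in the controls and between -3.0 and -1.33 after FB1 (1.72 ± 0.23, adjusted p = 0.000381). Tpsb2, a tryptase of mast cells, lay between -2.86 and -1.63 and between -1.72 and -0.13 (1.56 ± 0.209). In each case FB1 array 4 was the lowest of its group. The median over the 13 called genes was 0.474 on that array, 1.21 to 1.87 on the other 5 FB1 arrays and -0.558 to 0.489 on the WT controls.

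Dzip1 has a second tested probe without the run. It changed by -0.02 ± 0.127, while the probe with the run changed by 1.73 ± 0.232. The others included Nlrp9a (1.87 ± 0.374), Dnal1 (1.57 ± 0.252), Gm4846 (1.45 ± 0.227), Galnt5 (0.92 ± 0.139) and Gm4470 (0.91 ± 0.132). With the reverse complement ACAGCACAG, 1 of 10 tested genes was called. The run was noticed after the values were seen, and its part in these calls was not tested further. Without all probes that hold it, 611 genes were called.

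Probes with simple repeats leaned one way as well. Of 124 tested genes whose probe holds alternating G and T over 10 bases, 6 changed upward, the median was -0.433 and 0 were called in limma's fit. Per array their median ran from -1.03 to -0.11 under FB1 and from -0.852 to 0.404 in the controls, with wide overlap. Of 66 with alternating A and C, 3 were called higher and the median was 0.399. In KO, 99 of the 124 were called lower, against 24.6% of all genes.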

How the data were processed

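Liver RNA of 12 WT and 12 KO mice was measured on 1-colour Agilent arrays (Cy3). Per the file headers, the deposited intensity of each spot came from Agilent Feature Extraction 10.10.1.1, background-subtracted and detrended within the array, not scaled between arrays. The authors' deposited series of log2 values (33417 probes, column medians 7.86) served as an alternative. Its scale is log2, genes are not centred, and its background step is unknown here.

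From these, outlier spots (64 to 121 per array) were set to missing, log2 signals were centred on each array's 75th percentile, and replicate spots were averaged. Testing required detection (Agilent's well-above-background mark) throughout at least 1 group and at least 4 values in each, which left 33417 of 56605 probes. Each gene is represented by the brightest of its tested probes. All 24 arrays entered 1 limma 3.58.1 fit (R 4.3.3, lmFit, eBayes) of 4 group means without covariates, adjusted over 22088 genes. Files were read with the package data.table (1.17.8), and figures were drawn with Python 3.11.15, pandas 2.3.3 and matplotlib 3.10.9. Where a probe was dim on every array of a group, "at least N-fold" sets the bright group's mean against the dim group's mean of the higher of its own signal and the lowest detected signal per array. Exon or UTR positions of probes were not analysed here.

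The members, 57 gene lists, tests and alternatives were chosen with earlier results of these data known. Lists carry no test. Named genes were, outside the division, replication and matrix lists, the 15 largest called rises and falls and the 10 widest gaps each way. To these were added in every list the 4 called members with the smallest p (or, with no call, the 1 smallest), the receptors and main sphingolipid enzymes, the 5 called genes with the smallest and the 5 with the largest FB1 SD, 3 deviating genes per array, and 8 genes each opposite in KO or with the smallest p of the difference. Not all are named, a few are not reported here, and those chosen after their values were seen are said to be. Symbols came from the files or RefSeq, coordinates from the files (build mm9), and promoters from RefSeq GRCm38.p6. Alternatives were quantile and normexp processing (offset 50), the authors' values, filters, probe means, slide or replicate number as a block, slides alone, each genotype alone, an intensity trend, array weights, thresholds and leaving out each array. The fit was tested on simulated data.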

Additional observations from a re-analysis of the deposited data

Results flagged for a closer look

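In each group of 6 arrays, the gap of the highest or lowest array to its neighbour was divided by the group's range and set against Dixon's critical value for 6 samples. Chance passes about 1 in 20 groups, and 6.54% of all gene groups passed here. Among 270 groups of the 135 genes examined, 30 groups had an array that passed. Some of the 135 were chosen because 1 array deviated or the FB1 SD was large, so this count is a description.

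Among these chosen genes FB1 array 1 stood apart most often. It was the highest for Gldn (-3.39), Capn6 (-2.48), Gpnmb (-2.79), Cd63 (2.74), Bcl2l15 (-2.40), Phlda3 (0.487), Col6a3 (0.574), Col6a1 (1.34), Lum (1.83), Dach1 (0.771), Trav6-3 (0.959) and Bst2 (5.40). It was the lowest for Cers6 (1.85). FB1 array 2 was highest for Lcn2 (8.05), a neutrophil and acute phase gene, and for the median of the acute phase list (0.887). FB1 array 3 was highest for Dnajb9 (2.64), FB1 array 4 lowest for Dzip1 (-3.32) and Tpsb2 (-1.72), and FB1 array 6 lowest for Ubac2 (-5.10).

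Among the controls, array 1 stood apart for Gm5643 (4.60) and Trav6-3 (-2.04), and array 2 for Irx1 (-7.42). Array 2 was also lowest for the medians of the sphingoid base phosphate list (-0.168) and the NRF2 list (-0.121). Array 3 stood apart for Col6a1 (-0.636) and Dsn1 (-5.04). Array 4 did for Cers2 (4.25), Cnn1 (-0.514), Gm4470 (0.963), Adam32 (0.108) and Lrrc36 (-1.42), array 5 for Slc2a4rg-ps (-3.76) and array 6 for Pltp (1.77).

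The FB1 effect differed between WT and KO in 42 of the 135 genes by limma's test of the difference, against 9.30% of all tested genes. Some of the 135 were chosen for this difference, so the count is a description. The adjusted p was 0.00694 for Capn6, 0.00128 for Spon2, 0.000438 for Ifi27l2b, 0.000586 for Pkp1, 0.000651 for Svep1, 0.000894 for Ccdc120 and 0.00391 for Lpl. It was 0.00146 for Cd63, 0.00456 for Anxa2, 0.0137 for S100a6, 0.0377 for Phlda3 and 0.0195 for Lum. In these 12 genes the KO change was the larger.

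In the chromosome 12 locus the adjusted p was 0.00456 for Meg3, 0.0146 for Mirg, 0.00346 for the non-coding transcript between Meg3 and Mirg and 0.000958 for Dlk1. Among genes with the shared run it was 0.0153 for Lrrc9, 0.0356 for Dzip1, 0.025 for Tpsb2, 0.0215 for Dnal1, 0.0107 for Lrrc71, 0.0133 for Gm4846, 0.0281 for Galnt5 and 0.000659 for Gm4470.

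For metabolic genes the adjusted p of the difference was 0.0378 for Cers2, 0.00336 for Cers5, 0.00346 for Cyp2b10, 0.00395 for G6pdx, 0.0224 for Gnmt, 0.0265 for Apol11b and 0.0123 for Car8. For falls in WT it was 0.00261 for Wif1, 0.00636 for Tnnt2, 0.0224 for Yars, 0.0446 for Endog, 0.00503 for Prmt7, 0.00748 for Tmem68 and 0.0486 for Ttc1. It was 0.0236 for Bysl, 0.0385 for Bop1, 0.0108 for Wdr74 and 0.000393 for C730014E05Rik, which rose in WT.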

How the results depend on the processing

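The alternatives counted first are those of processing, filter, probe choice or fit with all 12 WT arrays. Stricter thresholds and the removal of probes with the shared run are not counted. Of 103 called genes among the 135 examined, 54 kept their call in every such alternative that tested them. A gene dropped by a filter, such as detection on all 24 arrays, was not tested there. The other 49 lost their call in at least 1 of these alternatives. Without at least 1 array 30 lost it, and 0 changed direction. The 182 falls depended most on the processing: 99 were called in the authors' values, 69 without the filter on dim probes, 62 with the 12 WT arrays alone, 44 at 1.5-fold and 32 at an adjusted p under 0.01. The 638 changed genes became 381 with WT arrays alone, 417 at 1.5-fold and 279 at 0.01, and the 456 rises 247 at 0.01. The genes called the same way in KO (511) became 338 without the filter, 324 with each genotype alone and 232 at 0.01. The genes that differed between genotypes (2055) became 1258 without the filter, 1304 at 1.5-fold and 624 at 0.01, and the KO calls 3737 at 1.5-fold.

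Without single arrays, 386 to 839 genes were changed, 77 to 283 lowered, and 315 to 657 called the same way in KO, with the extremes without FB1 arrays 1 and 4. The probes with the shared run were left out after seeing the data. The replicate numbers were not taken to pair the animals. Same-numbered deviations correlated at -0.0765 to 0.24, 2 of 6 above 0.1, and 2 of 6 best with their own number. Such correlations cannot exclude a pairing. With the replicate number as a block 552 genes were changed (423 higher, 129 lower). Low signal limits Gldn, Gpnmb, Pkp1, Tnnt2 and Wif1, which were not called with normexp correction or in the authors' values.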
